A study of Mus musculus with 12 samples.

Results

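Of the 161 protein-coding genes whose symbols place them in 6 enzyme groups of drug and xenobiotic metabolism, 55 reached a raw count of at least 10 in at least 3 of the 12 libraries of mouse intestinal stem cells (ISCs), and these 55 genes are described here. The groups were the cytochrome P450 families 1 to 4 (Cyp), UDP-glucuronosyltransferase families 1 and 2 (Ugt), cytosolic and kappa-class glutathione S-transferases (Gst), microsomal glutathione S-transferases (Mgst), sulfotransferases (Sult), and genes whose symbols begin with Aldh1, Aldh2 or Aldh3 (Aldh, aldehyde dehydrogenases, which by prefix also takes in Aldh16a1 and Aldh18a1). The count table listed 54232 genes, of which 198 had a matching symbol, and 37 of those were not protein-coding. The counts themselves chose the genes, so which genes are detected is a description of the libraries and was not tested.

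ISCs divide at the base of the crypts of the small intestine and replace its lining. Libraries of 3′ RNA sequencing, which reads the end of each transcript, had been made from ISCs of 12 female mice, 1 mouse per library, in 4 groups of 3. The SM6 groups came from wild-type C57/Bl6 mice aged 2 months (young) or 22 months (old), and SM6 names an isolation by surface markers. The Lgr5-GFP groups came from mice of the same 2 ages that carried the Lgr5-EGFP-IRES-CreERT2 allele (written CreERT in the labels). In it the locus of the stem cell receptor gene Lgr5 drives a green fluorescent protein and an inducible Cre recombinase. The allele is known for patchy expression between crypts. No group had a treatment. The sorting protocol in the labels names surface markers throughout, but by a legend among the supplementary material the reporter mice were gated on fluorescence, so isolation, strain and possibly gate change together and cannot be told apart.

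Enzymes of xenobiotic metabolism act in sequence. Phase I enzymes, mainly cytochrome P450s, oxidise a foreign compound, aldehyde dehydrogenases clear the reactive aldehydes that oxidation can leave, and phase II enzymes attach glucuronic acid, glutathione or sulfate so that the product can be exported. The intestinal lining is the first tissue that swallowed compounds meet, and mature absorptive cells (enterocytes) are known to carry more of these enzymes than crypt cells. The regulators named below are nuclear receptors and other ligand-sensing transcription factors.

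Library totals ran from 970472 to 3815425 counts, between 1265512 and 1744328 in the SM6 groups and up to 3815425 in Lgr5-GFP young. Paneth cell defensins made up 23.1% of SM6 old replicate 3 and 23.2% of Lgr5-GFP young replicate 1, against 1.26% to 12.4% in the other 10 libraries. The summed level of 16 stem cell markers was 14480 to 17800 CPM in SM6 young, 9015 to 10530 in SM6 old, 13970 to 15630 in Lgr5-GFP young and 11830 to 13230 in Lgr5-GFP old, where CPM denotes counts scaled to a common library total. None of these 16 markers was at 0 in any group. In such bulk samples, fewer cells of a type and less RNA per cell cannot be told apart.

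The promoters of Cyp2c65, Mgst2 and Mgst3, 3 of the 4 genes called with age on average, are shown here so that the letters before their starts can be compared. The sequences are the 250 bases before the RefSeq start on GRCm38.p6, written 5′ to 3′ on the gene's strand, and Cyp2c68, a neighbour of Cyp2c65 on chromosome 19, is added for comparison. Capitals mark 2 of the 3 motifs that were searched on both strands: GCGTG, the core of the xenobiotic response element bound by the aryl hydrocarbon receptor, and CAAAGTCCA, an element of the kind bound by the nuclear receptor HNF4. The third, TGACNNNGC, the core of the antioxidant response element, was found in none of these 4 windows.
Cyp2c65, chr19:39060756-39061005, plus strand: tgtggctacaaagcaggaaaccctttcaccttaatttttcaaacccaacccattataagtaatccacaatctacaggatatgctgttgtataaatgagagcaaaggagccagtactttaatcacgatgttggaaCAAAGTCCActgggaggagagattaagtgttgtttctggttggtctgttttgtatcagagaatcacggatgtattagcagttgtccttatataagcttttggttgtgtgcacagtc
Mgst2, chr3:51660929-51661178, plus strand: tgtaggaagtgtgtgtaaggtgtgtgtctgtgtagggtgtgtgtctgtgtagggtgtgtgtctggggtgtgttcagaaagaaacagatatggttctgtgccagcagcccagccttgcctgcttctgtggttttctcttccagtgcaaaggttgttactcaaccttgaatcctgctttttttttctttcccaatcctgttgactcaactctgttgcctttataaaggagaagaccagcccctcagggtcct
Mgst3, chr1:167393842-167394091, minus strand: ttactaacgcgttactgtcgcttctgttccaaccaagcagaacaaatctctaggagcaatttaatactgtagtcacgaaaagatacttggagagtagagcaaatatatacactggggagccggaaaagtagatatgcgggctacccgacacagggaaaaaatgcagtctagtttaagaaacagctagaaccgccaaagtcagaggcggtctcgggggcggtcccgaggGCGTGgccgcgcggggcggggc
Cyp2c68, chr19:39741102-39741351, minus strand: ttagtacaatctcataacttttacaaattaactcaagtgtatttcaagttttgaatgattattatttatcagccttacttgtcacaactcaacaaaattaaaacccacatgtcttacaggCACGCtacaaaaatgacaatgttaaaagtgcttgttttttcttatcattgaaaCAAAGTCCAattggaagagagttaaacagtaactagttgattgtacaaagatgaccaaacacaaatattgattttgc

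A promoter was found for 51 of the 55 genes. CAAAGTCCA stood in 3 of these 51 (Cyp2c65, Cyp2c68 and Cyp3a11) and in 0.381% of all 27025 promoters of that length. GCGTG stood in 11 of 51 and in 28.2% of all promoters, and TGACNNNGC in 3 of 51 (Gsta3, Gstm5 and Mgst1) and in 10.1% of all. The Mgst2 window lies inside the annotated gene, within an intron of a transcript that begins farther upstream. A match of letters is a description and not a shown site.

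Among the 161 genes, 67 had no count in any library and 39 had counts below the minimum. The share over the minimum differed between the groups of enzymes: 17 of 81 Cyp genes, 5 of 19 Ugt, 17 of 22 Gst, 3 of 3 Mgst, 4 of 21 Sult and 9 of 15 Aldh. Of the 55 genes, 34 had at least 10 counts in all 12 libraries and 6 in only 3 to 5. Just inside the minimum, Aldh3b1 and Ugt2b5 each reached 10 counts in 3 libraries, and these 2 genes and Cyp2c55 would have failed it without 1 of the groups. Just outside it, Cyp2b10, the phenobarbital-inducible P450, reached 10 in 2 libraries, with 32 and 21 counts in Lgr5-GFP young replicates 1 and 3 and between 1 and 8 counts in the other 10.

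Several genes known from liver or from mature intestine had few counts or none. Cyp1a1 and Cyp1b1, targets of the aryl hydrocarbon receptor, had 0 counts in all 12 libraries, where a count of 0 allows up to 3 counts per library. The 9 genes of the Ugt1a cluster, which conjugate bilirubin and phenols, had 64 counts together over the 12 libraries. They share their last exons, where these libraries are read, and a read that falls on several genes may not have been counted, so this low count does not show low expression. Sult1a1, a phenol sulfotransferase, had between 0 and 14 counts in each library. Such floors cover counting error only.

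The 55 genes together took 4539 to 4636 CPM in SM6 young and 4473 to 4492 in Lgr5-GFP young. They took 5882, 5481 and 4437 CPM in SM6 old and 5410, 5061 and 5096 CPM in Lgr5-GFP old. Every old Lgr5-GFP library was above every young one, whereas SM6 old replicate 3, the defensin-rich library, lay below all 3 SM6 young libraries. As 1 sum over chosen genes this was not tested. Within each group of enzymes, the gene with the most counts was Aldh1b1 among Aldh (1235 to 1619 CPM over all libraries), Mgst1 among Mgst (644.6 to 1111), Gsto1 among Gst (291.0 to 444.2), Ugt2b34 among Ugt (124.2 to 217.9), Sult1d1 among Sult (57.7 to 133.3) and Cyp2j6 among Cyp (39.7 to 109.7). CPM was not divided by transcript length, so these levels are ordered by counts only.

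**Figure D1:**
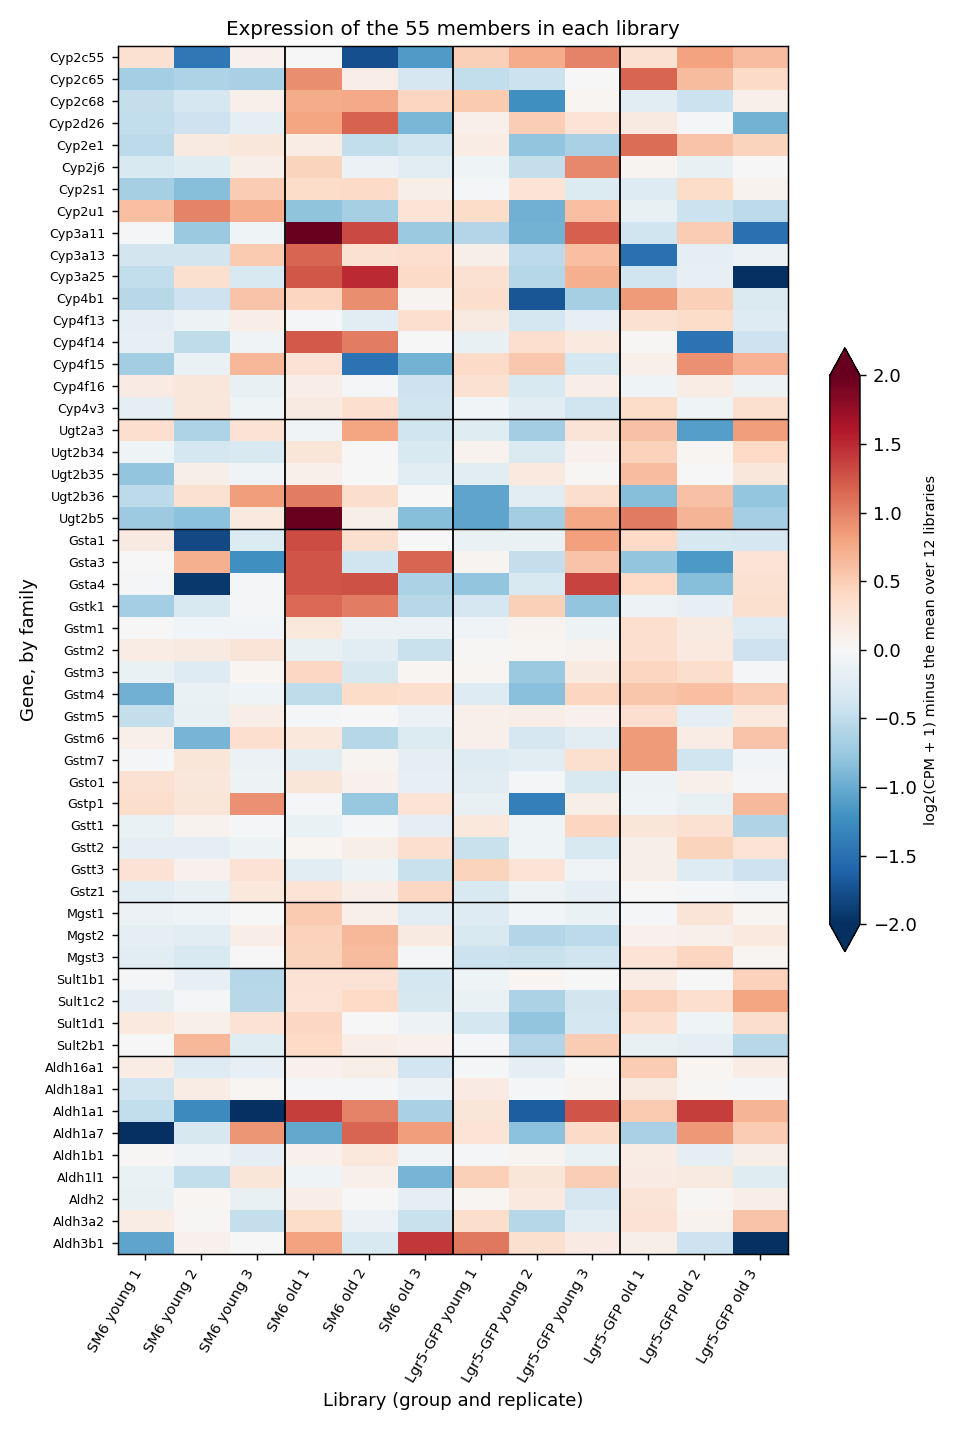
Each row is 1 of the 55 genes, grouped by enzyme family, and each column is 1 library, named by group and replicate. Colour gives log2(CPM + 1) minus the gene's mean over the 12 libraries, and the rows of Cyp2c65, Mgst2 and Mgst3 are mostly pale or blue in young libraries and red in most old ones, while Aldh1b1 stays near its mean throughout.

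Old and young ISCs were compared in each isolation and on average over both, to ask which enzymes differ with age. On the average of both isolations, 4 of the 55 genes were called at an adjusted p under 0.05 by edgeR's quasi-likelihood test, all higher in old ISCs: Cyp2c65, Mgst2, Mgst3 and Gstt2. Among all 13368 genes tested, 2.66% were called, and 0.598% were called higher. All genes had to pass a lower count minimum than the 55, so every share over all genes given here includes genes with fewer counts. With edgeR's stricter filter by expression, 354 of 9974 genes were called on average. At an unadjusted p under 0.05 there were 14 of the 55 (12 higher and 2 lower), beside 12.8% of all genes, and 9 without SM6 old replicate 1, Lgr5-GFP young replicate 2 or Lgr5-GFP old replicate 1. Over the 55 genes the median log2 fold change was 0.25, beside -0.026 over all genes, and 41 of the 55 (74.5%) had a value above 0, beside 46.8% of all genes. The average uses the same libraries as the 2 separate age effects and is no independent evidence beside them.

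Cyp2c65 (ENSMUSG00000067231, GRCm38 chr19:39061015-39093944, plus strand) encodes a P450 of the Cyp2c subfamily, whose enzymes oxidise drugs and arachidonic acid. It was at 21.2, 22.2 and 21.7 CPM in SM6 young and at 67.0, 38.0 and 27.2 CPM in SM6 old. In Lgr5-GFP it was at 24.3, 25.5 and 34.8 CPM in young and 78.6, 54.5 and 45.3 CPM in old ISCs. Every old library was above every young library of its isolation. The rise was 1.05 on the log2 scale on average (SE 0.204, edgeR adjusted p = 0.00362), with 1.02 in SM6 (SE 0.297, adjusted p = 0.0721) and 1.08 in Lgr5-GFP (SE 0.279, adjusted p = 0.0878). The SM6 value was 0.61 without SM6 old replicate 1, the library at 67.0 CPM.

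Mgst2 and Mgst3 are membrane-bound glutathione transferases that also handle leukotrienes and lipid peroxides. Mgst3 (ENSMUSG00000026688, chr1:167371966-167393841, minus strand) was at 250.6, 235.6 and 293.4 CPM in SM6 young, at 399.0, 450.0 and 286.0 in SM6 old, at 215.2, 213.6 and 219.8 in Lgr5-GFP young and at 352.6, 392.7 and 300.9 in Lgr5-GFP old. The ages did not overlap in Lgr5-GFP, while SM6 old replicate 3 lay within the range of SM6 young. Its average rise was 0.62 on the log2 scale (SE 0.124, edgeR adjusted p = 0.00481), with 0.54 in SM6 and 0.69 in Lgr5-GFP.

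Mgst2 (ENSMUSG00000074604, chr3:51660360-51682677, plus strand) was at 118.3, 114.2 and 147.4 CPM in SM6 young and 183.9, 212.4 and 152.6 CPM in SM6 old. In Lgr5-GFP the values were 108.4, 88.9 and 92.7 CPM in young and 142.6, 143.1 and 153.3 CPM in old ISCs. The ages did not overlap in either isolation, and the average rise was 0.56 (SE 0.121, edgeR adjusted p = 0.00898). Mgst1, the third member of the group and an enzyme of the outer mitochondrial membrane and endoplasmic reticulum, had an average log2 difference of 0.24 (SE 0.124, adjusted p = 0.433), with 714.8, 726.1 and 766.0 CPM in SM6 young and 1111, 828.7 and 661.4 CPM in SM6 old. In Lgr5-GFP it was at 644.6, 743.0 and 700.8 CPM in young and 757.8, 926.2 and 789.9 CPM in old ISCs, without overlap.

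Gstt2 (ENSMUSG00000033318, chr10:75831114-75837424, minus strand), a theta-class transferase, was at 117.1, 117.5 and 125.0 CPM in SM6 young, 137.9, 145.2 and 170.2 in SM6 old, 98.3, 126.7 and 108.5 in Lgr5-GFP young and 146.6, 183.8 and 163.0 in Lgr5-GFP old. The ages did not overlap in either isolation. The average rise was 0.45 (SE 0.117, edgeR adjusted p = 0.0332), and this call was kept in 10 of 21 alternative analyses. It was lost with library totals in place of scaled totals, without SM6 young replicate 1, 2 or 3, without SM6 old replicate 2 or 3, without Lgr5-GFP young replicate 1 or 3, without Lgr5-GFP old replicate 2 or 3, and without both defensin-rich libraries, with adjusted p up to 0.136. Cyp2c65, Mgst2 and Mgst3 were called in all 21, with adjusted p up to 0.0222, 0.0402 and 0.0249. Without SM6 old replicate 3 the average had 6 calls, since Aldh1a1, Cyp2u1 and Gstk1 joined and Gstt2 left.

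**Figure D2:**
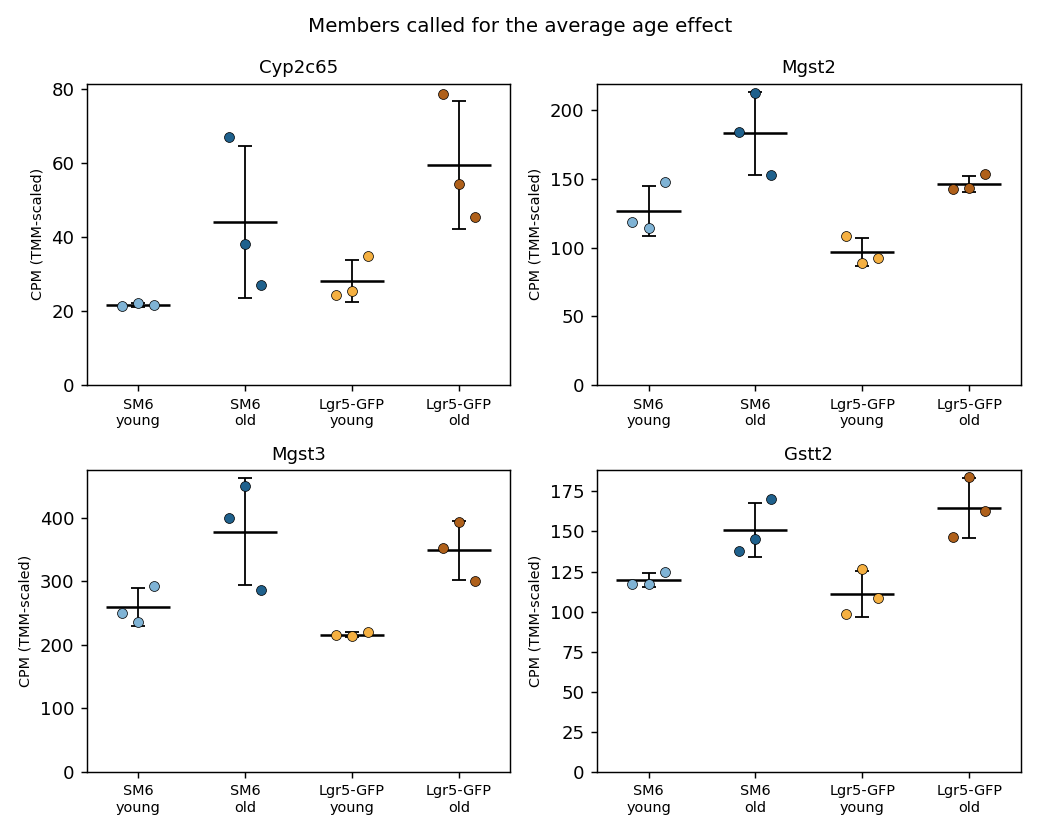
TMM-scaled CPM (y axis) of the 4 genes called for the average age effect, by group (x axis). Points are libraries, wide lines are means and bars are SD (n = 3), and the old libraries lie above the young ones in both isolations for Cyp2c65, Mgst2 and Gstt2, while for Mgst3 1 SM6 old library at 286.0 CPM falls among the young.

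Markers of enterocytes also differed with age, but unlike the 4 called genes their median was above 0 in SM6 and below 0 in Lgr5-GFP. The summed level of 15 enterocyte markers was 1749, 1676 and 1880 CPM in SM6 young and 9110, 4644 and 2409 CPM in SM6 old, and 2196, 1526 and 2864 CPM in Lgr5-GFP young and 2548, 11680 and 1810 CPM in Lgr5-GFP old. In the library at 11680 CPM, Fabp1 alone made up 9851 CPM, and without it the other 14 markers summed to 1509, 1253 and 1841 CPM in Lgr5-GFP young and 1214, 1825 and 1030 CPM in Lgr5-GFP old. The median log2 fold change over the 15 markers was 0.99 for SM6 and -0.949 for Lgr5-GFP, where 13 of 15 were below 0 and 10 had an unadjusted p under 0.05. Of the 15, 4 were called higher in SM6, 3 were called lower in Lgr5-GFP, and 2 (Fabp1 and Fabp2) were called higher on average, and none was at 0 in any group. Goblet cell markers had 5 of 8 called higher in SM6 (median log2 value 1.11). In Lgr5-GFP 0 were called, with 3 at an unadjusted p under 0.05 and a median of -0.425. Of 16 stem cell markers 5 were called lower in SM6 and on average. Of 7 tested tuft cell markers 0 were called, with medians of 0.75 for SM6 and -2.36 for Lgr5-GFP. Of 11 tested Paneth cell markers, all had an unadjusted p under 0.05 in each isolation, and their median log2 value was 1.97 for SM6 (2 called higher) and -2.67 for Lgr5-GFP (2 called lower). Of 11 enteroendocrine markers, 2 (Sct and Sst) were called higher in SM6 and 0 were called in Lgr5-GFP. The part of these markers in the results was not tested.

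Within SM6, 0 of the 55 genes were called by edgeR, beside 2.42% of all genes. At an unadjusted p under 0.05 there were 15 (12 higher and 3 lower in old), beside 13.1% of all genes, and DESeq2 called 5 and limma with voom weights 4. Their median log2 fold change was 0.21, beside -0.0069 over all genes. It was 0.125 without SM6 old replicate 1, where 9 genes had an unadjusted p under 0.05, and 0.0651 with library totals in place of scaled totals, beside -0.161 over all genes. The count of 0 depended on the method and on single libraries. Without SM6 old replicate 3, edgeR called 9 genes, of which Aldh1a1, Cyp2c65, Cyp2d26, Cyp3a11, Cyp4f14, Gstk1, Mgst2 and Mgst3 were higher and Cyp2u1 lower. It was 1 without Lgr5-GFP young replicate 2 (Aldh1a1) and 1 without Lgr5-GFP old replicate 2 (Cyp4f14).

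Cyp4f14, an omega-hydroxylase of fatty acids and leukotriene B4, had the smallest p in SM6. It was at 27.9, 21.6 and 29.6 CPM in SM6 young and 74.8, 64.5 and 31.2 CPM in SM6 old, and the ages did not overlap. The log2 difference was 1.12 (SE 0.314, adjusted p = 0.0608), and 1.41 without SM6 old replicate 3 (adjusted p = 0.00688). Aldh1a1, a retinaldehyde dehydrogenase, was at 5.46, 2.77 and 0.723 CPM in SM6 young and 22.6, 17.0 and 4.79 CPM in SM6 old, with overlap and a log2 difference of 2.25 (SE 0.661, adjusted p = 0.0755). Aldh1a1 held 9, 5 and 1 counts in SM6 young, so the size of this difference is uncertain. Its average over both isolations was 1.35 (SE 0.429, adjusted p = 0.112).

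Some genes had p under 0.05 and lower values in old ISCs. Cyp2u1, a fatty acid hydroxylase named after its values were seen, was at 24.3, 32.2 and 26.7 CPM in SM6 young and 8.57, 9.50 and 19.2 CPM in SM6 old, without overlap (log2 difference -1.17, SE 0.365, adjusted p = 0.102). In Lgr5-GFP it was at 20.5, 7.56 and 24.4 CPM in young and 14.0, 11.4 and 10.6 CPM in old ISCs, with overlap (-0.61, SE 0.373). Its average was -0.89 (SE 0.261, adjusted p = 0.0747), and its first exon is overlapped by an antisense gene. Gstt3, a theta-class transferase that was also named after its values were seen, had an average of -0.43 (SE 0.143, adjusted p = 0.133).

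Within Lgr5-GFP, 0 of the 55 genes were called by edgeR, beside 0.471% of all genes. At an unadjusted p under 0.05 there were 7, all higher in old, beside 9.79% of all genes, and DESeq2 called 2 and voom 3. The 7 became 14 with voom and 12 without both defensin-rich libraries. With library totals in place of scaled totals they became 14, where the median over all genes was 0.164. Median log2 fold changes were 0.18 for the 55 genes and -0.034 over all genes. Without SM6 old replicate 3, which is in the shared fit though not in this comparison, edgeR called Cyp2c65 (log2 difference 1.09, adjusted p = 0.0362) and Mgst3 (0.69, adjusted p = 0.0255). It called Cyp2c65 alone without SM6 old replicate 1, and Cyp2e1 alone without Lgr5-GFP young replicate 1.

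Cyp2e1, which oxidises ethanol and small solvents, had the smallest p in Lgr5-GFP. It was at 46.0, 23.6 and 26.1 CPM in young and 90.6, 61.8 and 56.9 CPM in old ISCs, without overlap, and the log2 difference was 1.09 (SE 0.271, adjusted p = 0.0751). Sult1d1, a sulfotransferase of catecholamines, was at 78.1, 57.7 and 78.2 CPM in young and 126.6, 94.3 and 128.3 CPM in old, also without overlap (0.69, SE 0.19, adjusted p = 0.124). Sult1c2, named after its values were seen, was at 13.9, 9.45 and 11.6 CPM in young and 21.3, 19.5 and 27.0 CPM in old (0.91, SE 0.312, adjusted p = 0.271).

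Counted by overlap alone, every old library was above every young one for 6 of the 55 genes in SM6 (10.9%, beside 7.74% of all genes) and 12 in Lgr5-GFP (21.8%, beside 6.61%). The reverse held for 3 genes in SM6 (beside 9.78%) and 2 in Lgr5-GFP (beside 7.95%). Cyp2c65, Gstt2 and Mgst2 were above in both isolations, 5.45% of the genes beside 0.748% of all. Of the 55 genes, 0 were below in both (beside 1.29%) and 0 were without overlap in opposite directions (beside 0.965%).

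**Figure D3:**
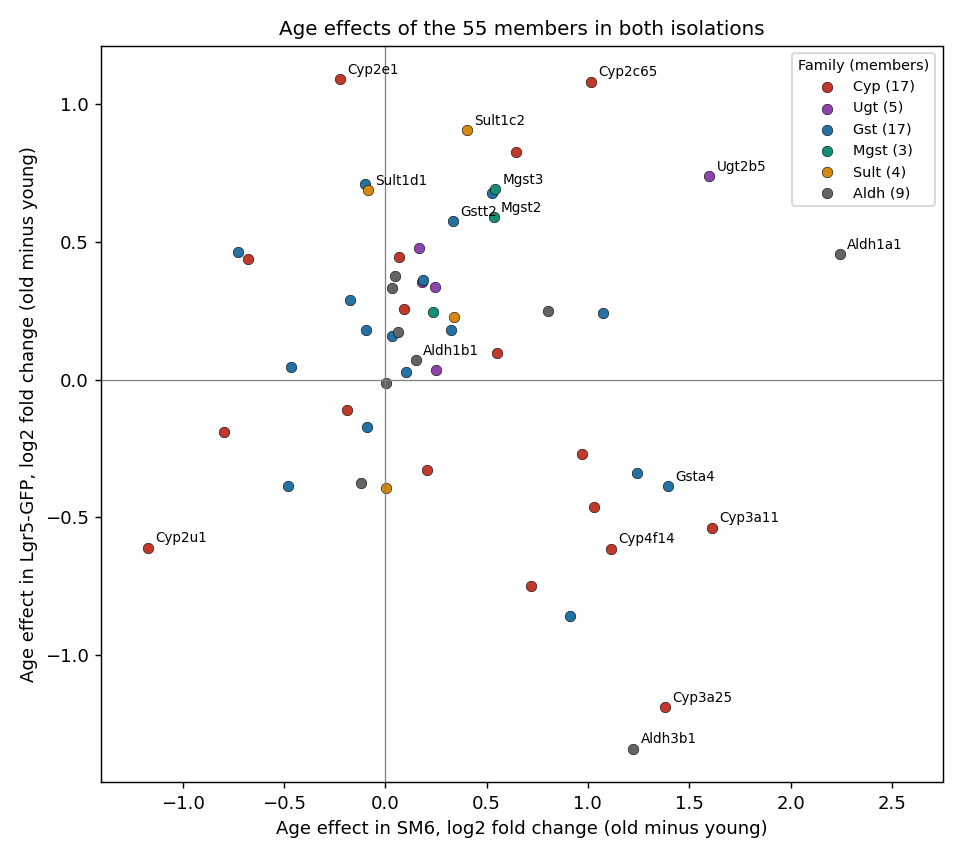
Each point is 1 of the 55 genes, coloured by enzyme family, with its log2 fold change (old minus young) in SM6 on the x axis and in Lgr5-GFP on the y axis. Cyp2c65 lies near 1 on both axes and Mgst2 and Mgst3 between 0.54 and 0.69 on both, while Cyp3a25, Cyp3a11 and Cyp4f14 lie to the lower right and Cyp2e1 lies high near the y axis. None of these values was called within 1 isolation.

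The difference of the age effects between the isolations was tested as an interaction (Lgr5-GFP minus SM6). By edgeR 0 of the 55 genes were called, beside 0.658% of all genes. At an unadjusted p under 0.05 there were 10, of which 8 were negative and 2 positive, beside 9.43% of all genes, and DESeq2 called 1 and voom 0. Without Lgr5-GFP young replicate 3 there were 6. Cyp genes made up 6 of these 10: Cyp4f14, Cyp3a25, Cyp3a11, Cyp3a13 and Cyp2d26 with negative values and Cyp2e1 with a positive one. Sult1d1, Aldh3b1, Aldh1a1 and Gsta4 were the others, but Aldh3b1 passed the count minimum only through SM6 old and Lgr5-GFP young, so its sign was favoured by the choice of members.

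Cyp4f14 had an interaction of -1.73 on the log2 scale (SE 0.457, adjusted p = 0.103). In Lgr5-GFP it was at 28.04, 39.7 and 36.0 CPM in young and 31.99, 10.6 and 23.2 CPM in old ISCs, opposite in sign to SM6 but with overlap. Without SM6 old replicate 3 the interaction was -2.02 (adjusted p = 0.019), and it was also called without Lgr5-GFP old replicate 1. For Cyp2e1 it was 1.31 (SE 0.393, adjusted p = 0.186), with 28.5, 47.1 and 48.4 CPM in SM6 young and 46.0, 29.2 and 31.2 CPM in SM6 old.

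The Cyp3a genes encode the P450s that oxidise the widest range of drugs. Cyp3a11 was at 9.71, 5.54 and 9.40 CPM in SM6 young and 42.9, 26.5 and 5.59 CPM in SM6 old, so that 2 of 3 old libraries were above the young and SM6 old replicate 3 was not. In Lgr5-GFP it was at 6.30, 4.73 and 24.01 CPM in young and 7.33, 14.6 and 2.89 CPM in old, and the interaction was -2.15 (SE 0.858, adjusted p = 0.422). The interactions of Cyp3a13 and Cyp3a25 were -1.47 (SE 0.557, adjusted p = 0.378) and -2.57 (SE 0.873, adjusted p = 0.304). No library held more than 22 counts of Cyp3a25, and its 3 Lgr5-GFP old libraries held 5, 5 and 0. The size of the Cyp3a25 interaction is therefore uncertain.

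Gsta4, which conjugates the lipid aldehyde 4-hydroxynonenal, was at 15.2, 3.33 and 15.2 CPM in SM6 young, 38.2, 38.7 and 9.59 in SM6 old, 8.51, 12.3 and 40.98 in Lgr5-GFP young and 20.7, 8.13 and 19.3 in Lgr5-GFP old, with an interaction of -1.78 (SE 0.787, adjusted p = 0.478). For both Cyp3a11 and Gsta4, SM6 old replicate 3 was apart from the other SM6 old libraries and Lgr5-GFP young replicate 3 from the other Lgr5-GFP young ones. Leaving out 1 library gave interactions of -2.79 to -1.07 for Cyp3a11 and -2.21 to -0.696 for Gsta4, in both cases nearest to 0 without Lgr5-GFP young replicate 3. Enterocyte markers had 5 of 15 called with a negative interaction, goblet cell markers 3 of 8, enteroendocrine markers 1 of 11 (Sct) and Paneth cell markers all 11 tested, and their part in the values of Cyp4f14, the Cyp3a genes and Gsta4 was not tested. The median log2 interaction of the 15 enterocyte markers was -2.44.

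**Figure D4:**
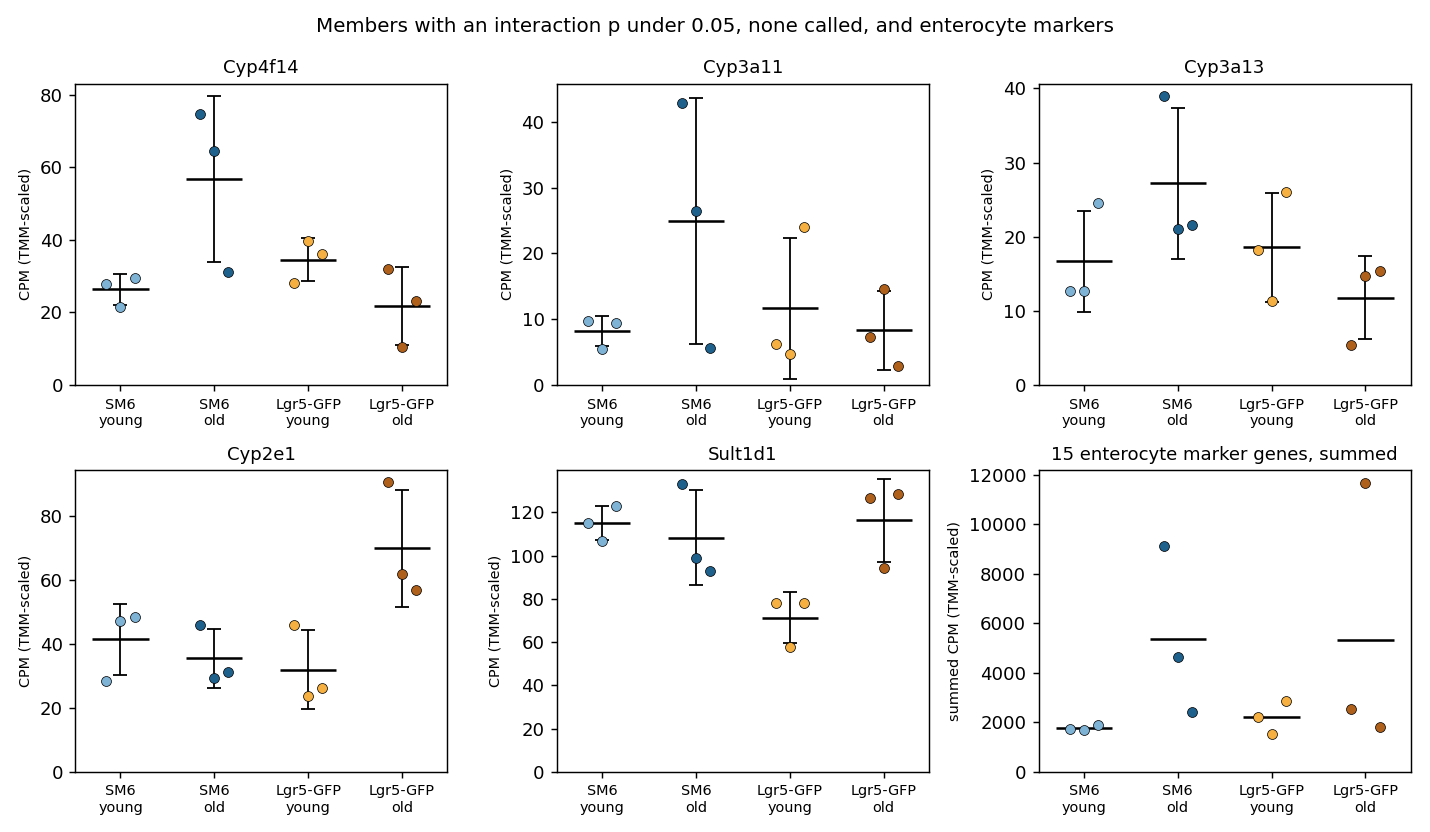
TMM-scaled CPM (y axes) by group (x axes) of 5 genes with an unadjusted interaction p under 0.05, none called, and the summed CPM of 15 enterocyte markers in the last panel. Points are libraries, wide lines are means, and bars in the first 5 panels are SD (n = 3). Cyp4f14, Cyp3a11 and Cyp3a13 are highest in SM6 old replicate 1, and Cyp2e1 in Lgr5-GFP old replicate 1, while the enterocyte sum reaches 11680 CPM in Lgr5-GFP old replicate 2, of which Fabp1 is 9851 CPM, although 13 of the 15 markers have a log2 fold change below 0 in Lgr5-GFP.

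The 2 isolations were also compared with each other within each age (Lgr5-GFP minus SM6), using the libraries already described. At 2 months 0 of the 55 genes were called by edgeR, beside 0.0898% of all genes, with 4 at an unadjusted p under 0.05 beside 7.47%, and DESeq2 and voom called 0. The 4 became 2 without SM6 old replicate 1 or Lgr5-GFP young replicate 3, and they became 6 when SM6 old replicate 3 or Lgr5-GFP young replicate 1 was left out. Sult1d1 was lower in every Lgr5-GFP young library than in every SM6 young library (115.3, 107.0 and 122.9 CPM), with a log2 difference of -0.67 (SE 0.188, adjusted p = 0.308). At 22 months 0 were called by edgeR, beside 0.718%, with 8 at an unadjusted p under 0.05 beside 9.4%, and DESeq2 called 1 and voom 0. Cyp4f14 had the smallest p at 22 months (log2 difference -1.36, SE 0.329, adjusted p = 0.0545), and -1.63 without SM6 old replicate 3 (adjusted p = 0.0062). It was also called without Lgr5-GFP young replicate 1 or Lgr5-GFP old replicate 1. In the same comparison 5 of 15 enterocyte, 6 of 8 goblet cell, 7 of 11 enteroendocrine and 1 of 11 tested Paneth cell markers were called lower in Lgr5-GFP. All 11 Paneth cell markers had an unadjusted p under 0.05 there (median log2 value -2.72). At 2 months the enteroendocrine markers Chga and Gip were called lower. All 11 Paneth cell markers (median 2.35) and 4 of 7 tested tuft cell markers (median over the 7, 2.39) had an unadjusted p under 0.05 at 2 months, with 0 called. The part of these markers in the values of Cyp4f14 and Sult1d1 was not tested.

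Other genes of known roles showed no call with age. Aldh1b1, a mitochondrial acetaldehyde dehydrogenase, had an average log2 difference of 0.11 (SE 0.11, adjusted p = 0.762). Aldh2, its mitochondrial relative, was at 0.12 (SE 0.126), Aldh3a2, a fatty aldehyde dehydrogenase, at 0.21 (SE 0.184), Gsto1, an omega-class transferase, at 0.041 (SE 0.117) and Gstm1 at 0.096 (SE 0.124). For each of these 5 genes the average plus 2 SE stayed below the value of Cyp2c65, but for Aldh3a2 it reached 0.582, above the values of Mgst2 and Gstt2. The genes named next in this paragraph also stayed below Cyp2c65 by this measure, except Cyp4b1 at 1.43. Ugt2b34, a UDP-glucuronosyltransferase, was at 0.29 (SE 0.127, adjusted p = 0.319), Sult1b1, a thyroid hormone sulfotransferase, at 0.28 (SE 0.15), Gstz1, an enzyme of tyrosine breakdown, at 0.25 (SE 0.124) and Cyp4b1 at 0.73 (SE 0.35, adjusted p = 0.382). Gstt1 had -0.13 (SE 0.161), Sult2b1, a cholesterol sulfotransferase, -0.19 (SE 0.278), Cyp2s1 0.32 (SE 0.223), Cyp2j6 -0.06 (SE 0.197) and Ugt2a3 0.32 (SE 0.337).

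The remaining members are given by family, chosen after their values were seen and none called. All 5 Ugt genes had average log2 differences above 0, and Ugt2b5 had 1.17 (SE 0.564, adjusted p = 0.389), at 1.82, 1.66 and 4.34 CPM in SM6 young, 17.9, 4.07 and 1.60 in SM6 old, 1.26, 1.89 and 7.04 in Lgr5-GFP young and 8.66, 6.51 and 1.93 in Lgr5-GFP old, so that the ages overlapped in both isolations. Of the 3 libraries through which Ugt2b5 passed the count minimum 2 were old, which favours a value above 0. Leaving out 1 library gave averages of 0.472 (without SM6 old replicate 1) to 1.78 (without Lgr5-GFP young replicate 3). Ugt2b35 had 0.27 (SE 0.251) and Ugt2b36 had 0.14 (SE 0.423).

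The mu-class transferases lie in 1 gene cluster and did not share a sign. Gstm2 was at 69.2, 70.4 and 74.4 CPM in SM6 young and 56.1, 52.9 and 45.5 CPM in SM6 old, without overlap (log2 difference -0.47, SE 0.199, adjusted p = 0.295), while in Lgr5-GFP its difference was 0.05 (SE 0.195). Gstm3 had an average of 0.27 (SE 0.158), Gstm4 of 0.60 (SE 0.302), Gstm5 of 0.07 (SE 0.131), Gstm6 of 0.31 (SE 0.257) and Gstm7 of 0.06 (SE 0.273). Gstk1, the kappa-class enzyme of mitochondria and peroxisomes, was at 14.0, 18.3 and 22.4 CPM in SM6 young and 51.4, 47.5 and 15.2 CPM in SM6 old, with replicate 3 of SM6 old again inside the young range (1.08, SE 0.369, adjusted p = 0.152).

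Of the other Cyp4f genes, Cyp4f13 had an average of 0.17 (SE 0.188), Cyp4f15 of -0.12 (SE 0.41) and Cyp4f16 of -0.15 (SE 0.184). Cyp4v3, a hydroxylase of fatty acids, had an average of 0.26 (SE 0.164). Of the other Cyp2c genes, Cyp2c55 was at 6.07, 1.11 and 5.06 CPM in SM6 young and 4.68, 0.679 and 1.60 CPM in SM6 old (-0.80, SE 0.708), and Cyp2c68 at 5.46, 6.10 and 8.67 CPM in SM6 young and 14.03, 14.3 and 11.2 CPM in SM6 old (0.97, SE 0.442, adjusted p = 0.339), without overlap in SM6. In Lgr5-GFP, where Cyp2c65 was at 1.08, the log2 differences were -0.19 (SE 0.546) for Cyp2c55 and -0.27 (SE 0.454) for Cyp2c68.

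Among the aldehyde dehydrogenases, Aldh18a1, an enzyme of proline synthesis, had an average of -0.005 (SE 0.122), Aldh16a1 of 0.18 (SE 0.142), Aldh1a7 of 0.53 (SE 0.474) and Aldh1l1, an enzyme of folate metabolism, of -0.25 (SE 0.213). Aldh3b1 had a log2 difference of 1.23 in SM6 (SE 0.705) and -1.34 in Lgr5-GFP (SE 0.737) at 14 counts or fewer in every library but Lgr5-GFP young replicate 1, which had 27.

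Reads of some genes could not be told from those of close copies. Of 72-base windows in the last 500 bases of their transcripts, 84.4% of those of Gsta1 also occur in another gene, with 73.4% for Gstp1, 35.0% for Cyp2c68, 25.6% for Gstt3, 16.6% for Gstm1 and 14.2% for Cyp2d26. In 43 of the 55 genes, Cyp2c65, Mgst2, Mgst3 and Gstt2 included, no window was shared. Gsta1 had an average log2 difference of 0.45 (SE 0.402) and Gstp1 of -0.13 (SE 0.358), and both values are uncertain for this reason.

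The rest of the pathway was described by 8 lists of 121 genes, of which 89 were tested. On average over the isolations 3 were called higher and 1 lower by edgeR (4.49% of the 89, beside 2.66% of all genes). Ces1f, a carboxylesterase of drugs and lipids, was at 4.25, 1.66 and 2.89 CPM in SM6 young and 35.9, 19.7 and 16.8 CPM in SM6 old, and at 3.78, 4.73 and 7.04 CPM in Lgr5-GFP young and 25.3, 30.9 and 5.79 CPM in Lgr5-GFP old. It rose by 2.51 on the log2 scale (SE 0.362, adjusted p = 0.00023), with overlap in Lgr5-GFP only. Ces1f held 7, 3 and 4 counts in SM6 young and 12, 5 and 17 in Lgr5-GFP young, so the size of its rise is uncertain. Slc35b1, from the list of cofactor supply and an exchanger of adenine nucleotides in the endoplasmic reticulum, was at 34.6, 26.1 and 33.2 CPM in SM6 young and 81.1, 72.6 and 65.5 CPM in SM6 old, without overlap, and at 41.9, 38.8 and 39.7 CPM in Lgr5-GFP young and 50.7, 39.8 and 54.01 CPM in Lgr5-GFP old, with overlap. Its rise was 1.23 in SM6 (SE 0.205, adjusted p = 0.00135) and 0.74 on average (SE 0.145, adjusted p = 0.00379), with a difference of 0.26 in Lgr5-GFP (SE 0.204, adjusted p = 0.758). Fmo1, a flavin monooxygenase, was called higher (2.11, SE 0.535, adjusted p = 0.0303), but Lgr5-GFP young held 2, 3 and 0 counts, so its fitted fold change is no measured ratio.

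Arnt, the partner of the aryl hydrocarbon receptor, was the gene called lower among 16 tested regulators (average -0.77, SE 0.206, adjusted p = 0.0417). It was at 30.3, 29.9 and 39.8 CPM in SM6 young, 25.7, 14.9 and 19.2 in SM6 old, 37.8, 35.9 and 32.3 in Lgr5-GFP young and 21.3, 27.7 and 10.6 in Lgr5-GFP old, without overlap in either isolation. Among 28 other phase I enzymes 14 had an average p under 0.05, beside 12.8% of all genes. Of the 14, Ephx1 was lower in old ISCs (-0.38, SE 0.181) and the others were higher. The median log2 fold change over the 28 was 0.42, beside -0.026 over all genes. By edgeR 0 were called on average among 7 electron donors (0 at an unadjusted p under 0.05), 6 other conjugating enzymes (0), 9 efflux transporters (2), 4 other cytochrome P450s (2) and 5 other aldehyde dehydrogenases (1), and within SM6 alone Cyp51, a P450 of cholesterol synthesis, was called higher (1.09, SE 0.285, adjusted p = 0.0398).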

How the data were processed

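The authors sequenced 3′ libraries of sorted ISCs, aligned the reads with STAR 2.4.2a to GRCm38 (mm10, per the labels' processing notes) and counted them over GENCODE exons with featureCounts. The deposited values are raw counts per gene, without scaling. Whether reads with the same molecular identifier were collapsed is not stated.

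Genes with more than 5 reads and at least 1 CPM in at least 1 library were kept (13368). In R 4.3.3, edgeR 4.0.16 scaled totals by TMM and fitted its quasi-likelihood model, with a mean for each of the 4 groups, to the 12 libraries together. Tests were two-sided, with Benjamini-Hochberg adjustment over all 13368 genes and calls at an adjusted p under 0.05. Standard errors were derived from the test statistic. DESeq2 1.42.0 and voom with quality weights (limma 3.58.1) were alternatives. CPM values use the TMM-scaled totals.

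The members, gene lists and tests were chosen with earlier results of these data known. Named were genes called or of smallest p, a list of known enzymes, the gene of highest CPM in each family and up to 3 genes per pathway list. Cyp2u1, Gstt3, Sult1c2, Cyp2c68 and the other members were added after their values were seen. Coordinates come from GENCODE vM21 and promoters from RefSeq. Replicates are separate mice, and every pair differed by more than sampling noise.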

Additional observations from a re-analysis of the deposited data

How the results depend on the processing

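The counts of called members depended on the analysis. Against 0 by edgeR, library totals without scaling gave 1 call in SM6 (Cyp2u1), 2 in Lgr5-GFP, 1 for the interaction and 1 at 22 months, and moved the median log2 fold change of all genes to -0.161 in SM6, 0.164 in Lgr5-GFP and 0.353 for the interaction. The members' median moved with it, to 0.0651, 0.375 and 0.401. Leaving out 1 library gave members' medians of 0.13 to 0.28 in SM6, 0.16 to 0.22 in Lgr5-GFP and 0.18 to 0.30 on average. Without a filter beyond 1 count there were 7 in SM6, 3 in Lgr5-GFP, 4 for the interaction, 1 between isolations at 2 months and 3 at 22 months. DESeq2 gave 5, 2, 1, 0 and 1 in that order, the likelihood ratio test 4, 3, 1, 0 and 2, voom 4, 3, 0, 0 and 0, and a fit of only the groups compared 1 in SM6 and 1 in Lgr5-GFP. Leaving out both defensin-rich libraries, an alternative added after seeing the data, gave 10 in SM6 and 1 each in Lgr5-GFP, the interaction and the comparison at 22 months. Leaving out 1 library at a time gave 0 to 9 calls in SM6, 0 to 2 in Lgr5-GFP, 3 to 6 on average, 0 to 1 for the interaction, 0 at 2 months and 0 to 1 at 22 months. The cause was not tested. No value turned its sign where it was called.

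Replicate numbers did not pair the samples: over 18 same-numbered pairs the correlation of deviations ran from -0.101 to 0.116, with 1 over 0.1. With the replicate number as a block, 4 members were called on average and 0 in the other 5 comparisons.

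Low counts limit many members: with 970472 counts in the shallowest library, a gene near 10 CPM has about 10 counts there.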
